A study of Mus musculus with 2 samples.

Results

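The matrix metalloproteinases and their inhibitors were examined as 10 genes: the metalloproteinases Mmp8, Mmp9, Mmp12, Mmp13, Mmp14 and Mmp19, the tissue inhibitors of metalloproteinases (TIMPs) Timp1, Timp2 and Timp3, and the related membrane protease Adam8. They were selected by gene symbol, with earlier results of these data known, out of 15623 genes listed in 1 or both libraries. All 10 had reads in both. RNA was sequenced from peritoneal macrophages of wild-type C57BL/6 mice, which had been drawn into the cavity by intraperitoneal injection of 4% thioglycolate and collected 4 to 5 days later. The cells were purified by adherence for 4 h, starved in medium with 0.5% serum, and either left nontreated (NT) or stimulated with mouse IL-4 for 6 h. Each group held 1 library, so the values carry no replicate error. The mice were 6 to 8 weeks old, how many were pooled for a library is not given in the sources used here, and one label field names the tissue as bone marrow while the source field names peritoneal macrophages.

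Matrix metalloproteinases are zinc-dependent proteases, secreted or anchored in the membrane, that cleave collagens, elastin and other proteins of the extracellular matrix and also cytokines and receptors. Most are made as inactive proenzymes and are activated when their propeptide is removed, and the TIMPs block the active enzymes by binding their catalytic site. In macrophages, these enzymes serve migration through tissue, turnover of matrix and the resolution or persistence of inflammation, and the Th2 cytokine IL-4 polarizes macrophages to the alternative (M2) state. The study used the comparison of these libraries to find genes regulated by IL-4.

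The library totals were 11035641 (NT) and 11250099 (IL-4) expected counts, which are the reads that the quantification assigned to genes. Of 8 macrophage markers, all had reads in both libraries, and Lyz2 (11289 and 10811 FPKM) and Cd68 (3240 and 3465 FPKM) were among them, where FPKM is the read number scaled for transcript length and library size. A list of 8 genes of the IL-4 response, Arg1 among them, was written with earlier results of these data known, so it is no independent control. All 8 were higher in the IL-4 library by the rule used here, where 4.07% of all genes tested were. That rule calls a gene when its log2 ratio of IL-4 over NT is at least 0.75 in size and its reads differ between the libraries beyond counting error (exact binomial p-value at most 0.05, adjusted value at most 0.5). It compares libraries and not conditions. Intervals are 95% intervals for counting error alone, and reads copied by PCR are not independent molecules.

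Mmp13, Timp1 and Adam8 were called higher upon IL-4 stimulation, and none of the 10 genes was called lower. Thus 3 of 10 were called higher, where the share of all 15593 genes tested that was called higher was 4.07%, and 0 of 10 were called lower, where that share was 6.28% (10.4% for calls in either direction). The 10 genes were chosen with earlier results of these data known, so these counts do not speak for the whole family. Of the other matrix metalloproteinases, 12 had reads, and 0 were called higher and 2 lower. The median log2 ratio was 0.17 over the 10 genes and -0.03 over all genes tested. Of the 7 genes that were not called, Mmp12, Timp2 and Mmp19 had ratios over 0 and Mmp14, Mmp8, Timp3 and Mmp9 had ratios under 0. The counting intervals of 9 of the 10 genes excluded 0, all but that of Mmp9. In bulk RNA, fewer cells of a type and less RNA per cell cannot be told apart.

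**Figure D1:**
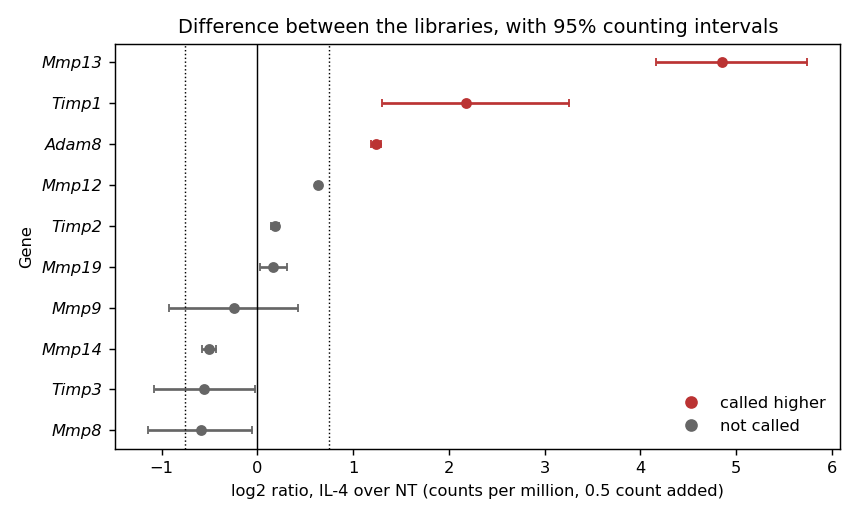
Log2 ratio of IL-4 over NT for each of the 10 genes (x axis; counts scaled to the library total, with 0.5 count added), with 1 library per group. Points are the ratios, bars the 95% counting intervals, dotted lines the threshold of 0.75 in each direction, and red marks the genes called higher. Mmp13 (4.85), Timp1 (2.17) and Adam8 (1.24) lie past the threshold, and Mmp12 (0.63) lies just under it with a narrow interval.

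Mmp13 encodes collagenase 3, the main enzyme by which mice cut fibrillar collagen. It had 15 expected counts in NT cells and 455 upon IL-4 stimulation, or 0.51 and 15.04 FPKM. The NT level was the lowest of the 10 genes, and the IL-4 level ranked sixth among them. The log2 ratio was 4.85 (4.16 to 5.74), a 28.8-fold difference. Among the 9925 genes for which either library held 50 expected counts or more, 22 (0.222%) had a ratio as high as that of Mmp13 or higher, Mmp13 included. Mmp13 entered this set only through the IL-4 library, where it was high, so the share describes its rank and is no test. The gene (identifier 17386) lies on chromosome 9 from 7272514 to 7283333 (GRCm38) and overlaps no other annotated gene.

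Adam8 encodes CD156, a protease of the ADAM family on the surface of myeloid cells that sheds membrane proteins. Its reads numbered 3694 in NT cells and 8881 upon IL-4 stimulation, or 106.78 and 251.68 FPKM. The log2 ratio was 1.24 (1.18 to 1.29), a 2.36-fold difference on reads numerous enough that the whole interval lay above the threshold. Of the 3 genes called, Adam8 alone was already abundant in NT cells, where its FPKM exceeded that of 95.8% of listed genes. It lies on chromosome 7 from 139978932 to 139995207 (GRCm38, identifier 11501).

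Timp1 encodes a soluble inhibitor of most secreted metalloproteinases. Only 12 expected counts were found in NT cells and 57 in IL-4-stimulated cells, or 1.23 and 5.74 FPKM. The log2 ratio was 2.17 (1.31 to 3.25), a wide interval because few reads were available. Timp1 (chromosome X, 20870166 to 20874737, GRCm38, identifier 21857) lies inside Syn1, which is on the opposite strand, and its exons share 0 bases with the exons of Syn1. Syn1 had 149 expected counts without and 393 with IL-4, a log2 ratio of 1.37 (1.10 to 1.65), and was called higher too. Whether the libraries kept the strand is not given in the sources used here, so reads from introns of Syn1 cannot be told apart from reads of Timp1.

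The sequences before annotated transcript starts of the 3 genes called higher are shown with that of Mmp12, the most abundant of the 10. They come from RefSeq for GRCm38.p6 and cover 250 bases up to the start, 5′ to 3′ on the strand of the gene. Capitals mark matches to the AP-1 motif (TGANTCA) or the TATA motif (TATAAA). The windows are chr9:7272264-7272513 (Mmp13, plus strand), chr9:7347124-7347373 (Mmp12, plus strand, the second of 2 annotated starts), chrX:20869916-20870165 (Timp1, plus strand) and chr7:139992563-139992812 (Adam8, minus strand). The starts shown for Mmp12 and Adam8 lie 2977 and 2645 bases inside the outer ends of their gene records.
Mmp13: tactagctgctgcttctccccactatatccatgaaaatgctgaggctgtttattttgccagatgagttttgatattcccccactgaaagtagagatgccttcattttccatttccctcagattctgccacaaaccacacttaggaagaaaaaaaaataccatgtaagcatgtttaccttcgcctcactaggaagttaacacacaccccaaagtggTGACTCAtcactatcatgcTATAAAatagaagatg
Mmp12: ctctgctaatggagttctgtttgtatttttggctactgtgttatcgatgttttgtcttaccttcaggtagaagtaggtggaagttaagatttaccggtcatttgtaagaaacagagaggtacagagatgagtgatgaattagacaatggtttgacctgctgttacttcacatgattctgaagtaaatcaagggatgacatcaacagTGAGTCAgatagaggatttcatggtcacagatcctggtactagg
Timp1: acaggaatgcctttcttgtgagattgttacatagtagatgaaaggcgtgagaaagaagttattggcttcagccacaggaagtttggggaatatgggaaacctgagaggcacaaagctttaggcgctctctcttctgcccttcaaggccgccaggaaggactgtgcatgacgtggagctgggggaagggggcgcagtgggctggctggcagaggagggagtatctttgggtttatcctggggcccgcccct
Adam8: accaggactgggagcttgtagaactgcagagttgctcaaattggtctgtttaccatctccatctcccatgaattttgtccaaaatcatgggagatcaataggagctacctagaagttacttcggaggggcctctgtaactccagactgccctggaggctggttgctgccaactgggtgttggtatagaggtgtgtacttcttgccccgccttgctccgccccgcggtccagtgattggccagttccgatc

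In the RefSeq table, 8 of the 10 genes had windows from 250 bases before to 50 bases after a start, 9 windows in all, while Mmp9 and Mmp19 had none. Both strands were searched. The AP-1 motif began 35 bases before the start of Mmp13 and 44 bases before the second start of Mmp12, and it was in 2 of the 9 windows and in 7.81% of all 32851 windows in the table. The TATA motif began 16 bases before the start of Mmp13, 3 bases before that of Mmp8 (on the other strand) and 4 bases after the second start of Mmp12. It was in 13.6% of all windows. The Stat6 motif, TTC and GAA set 4 bases apart, was in 0 of the 9 windows and in 6.95% of all windows, and the motif of other STAT proteins, with 3 bases between, was in 0 of the 9 and in 8.3% of all. The window at the first annotated start of Mmp12 held none of these motifs, and only the window at its second start is shown. A match in these windows is a description of letters and not of binding. The AP-1 and TATA motifs share no bases in the windows shown.

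Mmp12 encodes macrophage elastase, which degrades elastin and is made mainly by macrophages. It was the most abundant of the 10 genes in both libraries, with 30301 expected counts in NT cells and 47878 upon IL-4 stimulation, or 755.05 and 1169.61 FPKM. Its reads made up 0.275% of all NT reads and 0.426% of all IL-4 reads, and its FPKM ranked 71 and 44 among all listed genes. The log2 ratio was 0.63 (0.61 to 0.65), so the gene was not called although the interval excluded 0. Mmp12 was called higher with a fold change over 1.5 and an adjusted value of at most 0.05, the thresholds in the methods of the study, since its fold was 1.55.

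Mmp14 encodes MT1-MMP, a protease anchored in the plasma membrane that cuts collagen and, in a complex with TIMP-2, activates the proenzyme of the gelatinase Mmp2. It had 3797 expected counts in NT cells and 2731 upon IL-4 stimulation, or 89.76 and 63.30 FPKM. The log2 ratio was -0.50 (-0.57 to -0.43), which excluded 0 and did not reach the threshold. Timp2, the most abundant inhibitor, had 9128 and 10548 expected counts, or 225.73 and 255.73 FPKM, and a log2 ratio of 0.18 (0.14 to 0.22). The FPKM of Timp2 was therefore 2.51 times that of Mmp14 in NT cells and 4.04 times upon IL-4 stimulation. Mmp2 had 21 and 8 expected counts and was called lower, with a log2 ratio of -1.37 (-2.80 to -0.19). These reads were few, the interval reached past the threshold towards 0, and the call was not tried under other scalings or thresholds.

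Mmp19, a metalloproteinase of basement membrane proteins, had 829 expected counts in NT cells and 950 upon IL-4 stimulation, or 22.43 and 25.18 FPKM. Its log2 ratio was 0.17 (0.03 to 0.30). Tmem198b overlaps Mmp19 on the opposite strand, with 789 shared exon bases, and had 249 and 356 expected counts, so some reads of the pair may be assigned to the wrong gene. Neither gene was called.

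The remaining 3 genes had few reads. Mmp8, the collagenase of neutrophil granules, had 74 expected counts in NT cells and 50 upon IL-4 stimulation (2.73 and 1.81 FPKM), a log2 ratio of -0.59 (-1.14 to -0.06). Mmp9, the gelatinase B of neutrophils and macrophages, had 43 and 37 (1.21 and 1.02 FPKM), a log2 ratio of -0.24 (-0.92 to 0.42). Timp3, an inhibitor that binds to the matrix and also blocks proteases of the ADAM family, had 76.44 and 52.81 (1.46 and 0.99 FPKM), a log2 ratio of -0.56 (-1.08 to -0.02). With the median ratio of genes of like length subtracted, the Timp3 ratio was -0.39 (-0.91 to 0.14). A difference for Mmp9 was not detectable at this depth, and the intervals of all 3 genes included the threshold of -0.75. Timp3 shares 1733 exon bases with Syn3 on the opposite strand, and Syn3 had 13.56 and 11.01 expected counts.

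**Figure D2:**
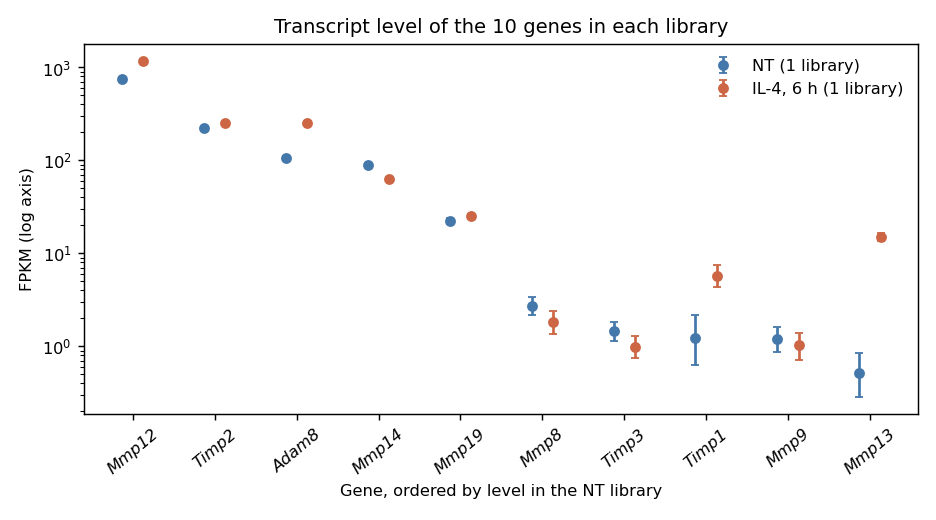
FPKM (y axis, log scale) of each of the 10 genes in NT (blue) and IL-4-stimulated (orange) macrophages, with genes ordered by NT level; bars are 95% counting intervals. Mmp12 is highest in both libraries (755.05 and 1169.61), and Mmp13 moves from the lowest level (0.51) to 15.04.

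By FPKM, the levels of the 10 genes spanned from 0.51 to 755.05 in the NT library. The NT order was Mmp12, Timp2, Adam8, Mmp14, Mmp19, Mmp8, Timp3, Timp1, Mmp9 and Mmp13. The counting intervals overlapped between Timp3 and Timp1 and between Timp1 and Mmp9 and between no other neighbours. The IL-4 order was Mmp12, Timp2, Adam8, Mmp14, Mmp19, Mmp13, Timp1, Mmp8, Mmp9 and Timp3. There, Timp2 and Adam8 could not be separated (255.73 and 251.68 FPKM), nor could Mmp8 and Mmp9 or Mmp9 and Timp3. The first 5 places were the same in both libraries.

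To compare inhibitors with proteases, the FPKM values were summed. The 6 metalloproteinase genes summed to 871.69 FPKM in NT cells and to 1276 FPKM upon IL-4 stimulation, of which Mmp12 made up 86.6% and 91.7%. The 3 TIMP genes summed to 228.42 and 262.46 FPKM, of which Timp2 made up 98.8% and 97.4%. The ratio of summed TIMP to summed metalloproteinase FPKM was 0.262 (0.256 to 0.268) in NT cells and 0.206 (0.201 to 0.210) upon IL-4 stimulation. Without Mmp12 the ratio was 1.96 in NT cells and 2.47 upon stimulation, so the direction of the difference turned with that gene. Among the metalloproteinases other than Mmp12, the share of Mmp13 was 0.437% in NT cells and 14.1% upon stimulation, and that of Mmp14 was 77.0% and 59.5%. These are levels of mRNA and say nothing of enzyme activity.

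Mmp13, Mmp12 and Mmp8 belong to a cluster of metalloproteinase genes on chromosome 9 (GRCm38), in which 10 genes from Mmp13 to Mmp7 lie between 7272514 and 7699585, a span of 427 kb. Of these, 6 had reads, and Mmp1b, Mmp1a, Mmp10 and Mmp20 were listed in neither library. Mmp13 was called higher, Mmp12 and Mmp8 were not called, and Mmp27, a metalloproteinase with 64 and 30 expected counts, was called lower with a log2 ratio of -1.11 (-1.80 to -0.47). The Mmp27 call was lost with FPKM plus 1 and at a coefficient of variation of 0.2 or 0.4. Mmp3, which encodes stromelysin 1, had 1 and 0 expected counts, and Mmp7, which encodes matrilysin, had 2 and 0. Mmp13 and Mmp12, which lie 61063 bases apart, had FPKM values of 0.51 and 755.05 in the NT library.

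**Figure D3:**
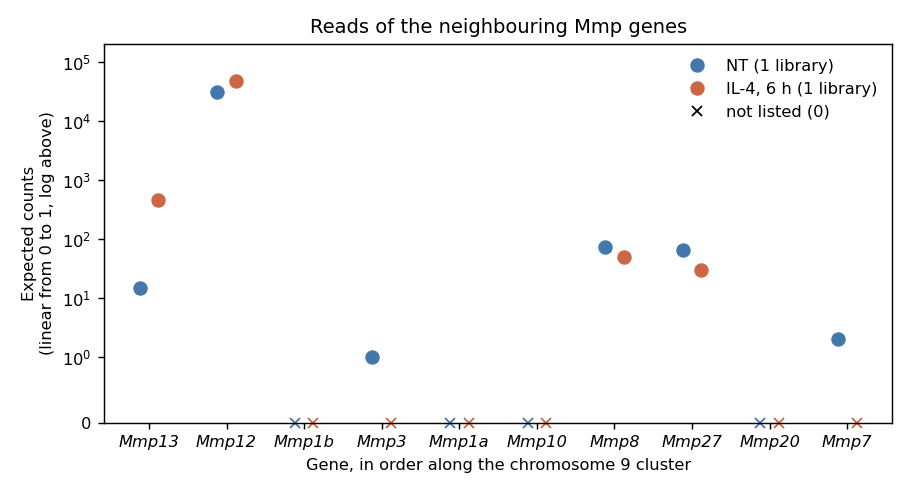
Expected counts (y axis, linear from 0 to 1 and log above) of the 10 metalloproteinase genes of the chromosome 9 cluster, in order along the chromosome, in NT (blue) and IL-4-stimulated (orange) macrophages; crosses mark genes that are not listed. Mmp13 has 15 and 455 expected counts, and its neighbour Mmp12 has 30301 and 47878.

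Other genes of the metalloproteinase system were taken from fixed lists. Of 17 further matrix metalloproteinases, 12 had reads, with levels of at most 3.31 FPKM in NT cells and 3.07 FPKM upon IL-4 stimulation. None of these 12 was called higher (4.07% of all genes tested), and Mmp27 and Mmp2 were called lower (6.28% of all). Timp4 and A2m, which encode further inhibitors, were listed in neither library, and Reck, an inhibitor anchored in the membrane, had 3 and 6 expected counts. Of 10 other ADAM genes with reads, 0 were called higher, where 4.07% of all genes tested were. Adam19 (43.2 and 22.22 expected counts, log2 ratio -0.97) was called lower, where 6.28% of all genes were. With the median ratio of genes of like length subtracted, the Adam19 ratio was -0.71, short of the threshold. The abundant sheddases among these other ADAM genes were not called. Adam9 had 35.61 and 52.23 FPKM (log2 ratio 0.55), Adam10 41.01 and 51.73 FPKM (0.34), Adam15 58.98 and 53.78 FPKM (-0.13), and Adam17, the convertase of TNF, 65.74 and 53.93 FPKM (-0.28). In the IL-4 library, the 251.68 FPKM of Adam8 exceeded the 213.63 FPKM of these 10 genes together, whereas in the NT library its 106.78 FPKM lay below their 204.58 FPKM.

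Of 19 ADAMTS genes, which encode secreted proteases of proteoglycans and procollagen, 15 had reads, 0 were called higher (4.07% of all genes tested) and 3 were called lower (6.28% of all). These were Adamts2 (52.47 and 21.28 expected counts, log2 ratio -1.31), Adamts7 (34 and 15) and Adamts4 (6.32 in the NT library and not listed in the IL-4 library). The Adamts2 call was lost with FPKM plus 1 and at a coefficient of variation of 0.4. Levels in this list were at most 3.81 FPKM.

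Among 14 genes that activate, dock or clear metalloproteinases, 13 had reads, 1 was called higher (4.07% of all genes tested) and 2 were called lower (6.28% of all). Cd44, a hyaluronan receptor that docks metalloproteinases at the cell surface, went up from 2753 to 5698 reads at a log2 ratio of 1.02 (0.96 to 1.09). Lrp1, the endocytic receptor that clears Mmp9, Mmp13 and TIMPs, went down from 21671 to 9495 reads at a log2 ratio of -1.22 (-1.25 to -1.18). Lrp1 has a long transcript, and the median log2 ratio of genes of like length was -0.63. With that median subtracted, its log2 ratio was -0.59 and it was no longer called. Mrc2, which takes up collagen, was called lower at 32 and 12 expected counts. Furin, the convertase that removes the propeptide of Mmp14, had 39.72 and 53.33 FPKM (log2 ratio 0.42) and was not called, and neither were Bsg (0.05), Plaur (-0.13) and Plau (0.00).

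Of 18 matrix proteins, 1 was called higher (4.07% of all genes tested) and 3 were called lower (6.28% of all). Fn1, which encodes fibronectin, went up from 5006 to 19129 reads at a log2 ratio of 1.91 (1.86 to 1.95). Lamc1 (log2 ratio -0.77), Col5a1 (-0.84) and Col4a1 (-0.83) were called lower, and each lost the call with the length trend subtracted, FPKM plus 1, a coefficient of variation of 0.2 or 0.4, or a log2 ratio of 1 required. Col4a1 and Col5a1 lost it with FPKM plus 0.1 too, and Lamc1 under TMM and median-of-ratios scaling. Spp1, which encodes osteopontin and had the highest level of the list (1059 and 1176 FPKM), had a log2 ratio of 0.15. Sparc (-0.08), Col1a1 (-0.36), Col1a2 (-0.11) and Col6a1 (0.48) were not called.

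**Figure D4:**
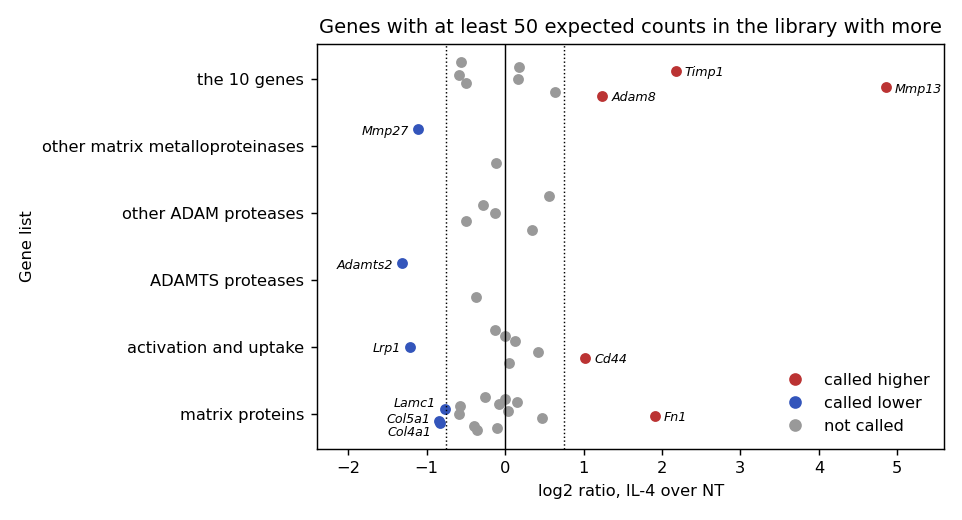
Log2 ratio of IL-4 over NT (x axis) for the 10 genes and for genes of 5 lists of the metalloproteinase system and matrix (y axis) that reached 50 expected counts in either library, so that Mmp9 is not drawn. Each point is 1 gene, dotted lines mark 0.75 in each direction, and red and blue mark genes called higher and lower. Mmp13 (4.85) and Timp1 (2.17) lie farthest to the right. Fn1 (1.91), Adam8 (1.24) and Cd44 (1.02) are the other genes called higher in these lists. Mmp13 and Timp1 reached 50 expected counts in the IL-4 library only. Of the genes called lower, Mmp27, Adamts2, Col4a1 and Col5a1 reached it in the NT library only.

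Because neutrophils store Mmp8 and Mmp9, and fibroblasts make Timp3, Mmp2 and Mmp14, markers of these cells were counted in both libraries. Of 12 neutrophil markers, Ly6g, S100a9, Camp, Ngp, Mpo and Retnlg were listed in neither library. Cxcr2 had 84.1 expected counts in NT cells and 83.9 upon IL-4 stimulation, S100a8 had 35 and 21, and Lcn2 had 33 and 23. Ltf had 2 and 3, and Elane had 1 and 0. The list summed to 1913 and 3422 expected counts, but Csf3r, which macrophages also express, held most of them, and without it the sums were 155.1 and 130.9. Of 10 mesothelial and fibroblast markers, all had reads in NT cells and only Lum had none upon IL-4 stimulation, and the sums were 1818 and 1523. Among these, Dcn had 300 and 289 expected counts and Pdgfra had 286 and 187, while Krt18 was called higher (12 and 79) and Msln lower (12 and 2). Eosinophil, mast cell, B cell, T cell and dendritic cell markers summed to between 30.83 and 106 expected counts per list in NT cells and between 28 and 97 upon IL-4 stimulation. The part of these cells in the values of Mmp2 and of the 10 genes, Mmp13, Timp1 and Adam8 included, was not tested.

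The calls of Timp1 and Adam8 depended on the variation assumed between samples. When a coefficient of variation of 0.4 between samples was assumed, Mmp13 alone of the 10 genes was called higher, where 0.417% of all genes tested were, and the calls of Lrp1, Cd44 and Fn1 were lost as well. Mmp13, Timp1 and Adam8 were all called with a coefficient of 0.2 and with the length trend subtracted.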

How the data were processed

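RNA of 1 NT and 1 IL-4 library was sequenced on an Illumina HiSeq at BGI. Per the labels and the methods, the authors used Bowtie for mapping to GRCm38/mm10 and RSEM for quantification (versions not stated). The deposited expected counts are RSEM estimates of reads per gene, which need not be whole and are not scaled for depth. The deposited FPKM values were scaled by the authors for transcript length and depth. The deposited gene length, weighted over transcripts, served for the length trend. The lowest FPKM listed was 0.01, so a gene absent from a table was set to 0.

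Gene numbers were matched to symbols and coordinates through RefSeq for GRCm38.p6 (15587 of 15623 matched). Log2 ratios came from counts scaled to library totals with 0.5 count added. For the test, counts were rounded (30 genes at 0 in each library after rounding dropped out) and each of 15593 genes was tested by an exact two-sided conditional binomial test with Benjamini-Hochberg adjustment. Intervals of a log2 ratio are Clopper-Pearson limits on the share of a gene's reads that were from IL-4 cells, put on the log2 scale. Intervals for levels are exact Poisson intervals. For the ratio of summed TIMP to summed metalloproteinase FPKM, Clopper-Pearson limits were taken on the TIMP share of their pooled reads within each library. These limits were then scaled from counts to FPKM by a fixed factor. A count of 0 allows up to 3 counts, which is 0.272 CPM (NT) and 0.267 CPM (IL-4). Exon overlaps came from GENCODE M21. For the length trend, the median ratio of 301 genes of most similar length was taken, over genes with 200 reads or more.

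The 10 genes and the lists were chosen with earlier results of these data known. Listed genes are named when called with at least 50 expected counts, or with at least 500, in the library with more. Members, Mmp2, Mmp3, Mmp9, Adam19, Adamts4, Adamts7, Mrc2, Msln, Reck, Plau, Dcn, Pdgfra, Krt19, Wt1, Upk3b, Lum, Mmp7, Cxcr2, S100a8, Lcn2, Ltf, Elane, the markers listed at 0 and the genes overlapping members are named besides, outside that rule and after their values were seen. Scaling by edgeR 4.0.16 (TMM) and DESeq2 1.42.0, FPKM with 0.1 or 1 added, edgeR's exact test with an assumed coefficient of variation, other thresholds, a filter and the length trend were alternatives. The calling script was tested on simulated data. The software was R 4.3.3 and Python 3.11.15 with pandas 2.3.3, scipy 1.17.1, numpy 2.4.6 and matplotlib 3.10.9.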

Additional observations from a re-analysis of the deposited data

How the results depend on the processing

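No paired analysis was possible because NT and IL-4 hold 1 library apiece, and no replicate could be left out. Over the 10 genes, 107 of 110 comparisons with an alternative kept their direction and their side of the threshold. Of the rest, 2 lost the call, 1 gained it and 0 reversed. These counts were partly fixed in advance. The assumed coefficients of variation, the other thresholds and the read filter reused the main log2 ratio, so no gene could reverse under them. Of these settings, only the lower fold threshold could add a call among the members not called. Of the 10 genes, 3 were called higher under the main thresholds and 1 with an assumed coefficient of variation of 0.4 (edgeR's exact test), when Timp1 and Adam8 lost the call. Over all genes, 635 were higher and 979 lower. With a coefficient of 0.2 these were 390 and 423, with 0.4 they were 65 and 8, with FPKM plus 1 they were 391 and 399, and with a log2 ratio of at least 1 they were 408 and 476. The ratio of summed TIMP to summed metalloproteinase FPKM was 1.96 (NT) and 2.47 (IL-4) without Mmp12. Over 40 other genes, 392 of 440 comparisons kept their side, 44 lost the call and 4 reversed, all 4 with the length trend subtracted and none of them called (Bsg -0.10, Col1a2 0.12, Spp1 -0.0014, Cd68 -0.0855). Other library scalings shifted every ratio by at most 0.0368. The cause was not tested. Depth limits Mmp9, Mmp8, Timp3 and Timp1, whose intervals are wide.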

Other observations

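Among markers of macrophages and neutrophils, Csf1r and Csf3r were called higher and Cd14 lower. Csf1r, the receptor for M-CSF, rose from 6236 to 11896 reads, a log2 ratio of 0.90 (0.86 to 0.95). Csf3r, the receptor for G-CSF, rose from 1758 to 3291, a log2 ratio of 0.88 (0.79 to 0.96). Cd14, the coreceptor for endotoxin, fell from 1219 to 591, a log2 ratio of -1.07 (-1.22 to -0.93). Both receptor calls were lost when a coefficient of variation of 0.2 or 0.4 was assumed and when a log2 ratio of 1 was required, and the Cd14 call was lost at 0.4. Adgre1 (0.42), Itgam (0.05) and Mertk (0.04) were not called.

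In lists for other cells, single genes stood apart. Krt18, a keratin of epithelial and mesothelial cells, rose from 12 to 79 reads, a log2 ratio of 2.64 (1.81 to 3.70), whereas Krt19 had 22 and 25, Wt1 68 and 65 and Upk3b 12 and 7, and none of these 3 was called. The Krt18 call was lost at an assumed coefficient of variation of 0.4. Adipoq, which encodes the adipocyte hormone adiponectin, was listed with 139 expected counts upon IL-4 stimulation only, whereas Lep, Plin1, Cidec and Cfd were listed in neither. Siglecf, a marker of eosinophils and of some macrophages, was called lower (53 and 27), a call lost with FPKM plus 1, at a coefficient of 0.2 or 0.4 and with a log2 ratio of 1 required, and Epx, Prg3, Ear6 and Ccr3 were listed in neither library.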
